A study of Mus musculus with 9 samples.

Results

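The G2 and mitosis genes described here are 50 genes that act between the end of DNA replication and the separation of the daughter cells, and all 50 listed symbols were found among the 21939 genes of the count table. They were measured by bulk RNA sequencing of long-term hematopoietic stem cells (LT-HSCs), the bone marrow cells that can rebuild blood for life, sorted as Lin- Sca1+ cKit+ CD34- Flt3- from C57BL/6 mice. The young group came from animals of 10 to 16 weeks and the aged group from animals older than 80 weeks. In the group called aged+Ri, aged LT-HSCs received 100 µM Rhosin, which blocks activation of RhoA, a GTPase that controls the actin skeleton. Each of the 3 groups has 3 libraries. Cells of every group were kept for 16 h in HBSS with 10% FBS at 37 °C, 3% O2 and 5% CO2 before RNA was taken, so no group holds RNA of freshly isolated cells. Replicates are described as biological, but the number of animals behind a library is not stated, and the p-values measure the spread between these samples. Each library held between 34358101 and 72503142 counts, and all 50 genes passed the filter on low counts that kept 15127 genes for testing. The young libraries had counts for 20129 to 21213 genes, and the aged and aged+Ri libraries for 15024 to 17987. The part of this difference in the comparisons against young was not tested. In bulk samples, fewer cells in G2 or mitosis and less of these RNAs per cell cannot be told apart.

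Cells enter mitosis when the kinase CDK1, bound to a B-type cyclin, is freed of inhibitory phosphates by CDC25 phosphatases. Kinetochore proteins then attach chromosomes to the spindle, the spindle checkpoint holds back the anaphase-promoting complex until attachment is complete, and cohesion and cyclins are destroyed together. The genes are transcribed late in the cycle, under MuvB complexes with MYBL2 and FOXM1 that bind the CHR promoter element, and under NF-Y that binds CCAAT boxes. Most LT-HSCs in adult marrow are quiescent and divide rarely.

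Most of the promoters read here hold the letters of at least 1 of these elements. The 8 promoters shown span the range from genes with both to Nuf2 with neither. They include Plk1 and Cks2, whose levels are described below. RefSeq promoter windows on GRCm38.p6, from 250 bases before to 50 bases after each start, were matched for 42 of the 50 genes in 45 windows. The 150 bases just before the start are printed 5′ to 3′ on the gene's strand, with TTTGAA (the CHR core) and CCAAT in capitals where either occurs, read on either strand as TTCAAA and ATTGG.
Cdk1: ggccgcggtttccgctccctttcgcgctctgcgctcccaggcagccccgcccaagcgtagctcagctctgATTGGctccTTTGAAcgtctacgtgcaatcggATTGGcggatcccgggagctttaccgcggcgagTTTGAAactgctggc
Top2a: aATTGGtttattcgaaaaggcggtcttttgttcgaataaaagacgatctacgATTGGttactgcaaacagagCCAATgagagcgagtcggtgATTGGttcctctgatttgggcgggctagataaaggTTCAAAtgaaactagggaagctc
Mki67: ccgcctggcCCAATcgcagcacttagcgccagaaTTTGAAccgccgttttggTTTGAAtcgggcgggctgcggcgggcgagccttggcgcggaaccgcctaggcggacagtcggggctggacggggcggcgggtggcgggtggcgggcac
Cdc20: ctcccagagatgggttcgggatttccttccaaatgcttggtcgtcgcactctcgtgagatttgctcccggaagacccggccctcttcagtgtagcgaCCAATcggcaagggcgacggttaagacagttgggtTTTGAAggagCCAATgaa
Kif11: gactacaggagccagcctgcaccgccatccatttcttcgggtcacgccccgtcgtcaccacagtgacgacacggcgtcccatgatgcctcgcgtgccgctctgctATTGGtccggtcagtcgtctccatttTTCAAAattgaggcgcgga
Plk1: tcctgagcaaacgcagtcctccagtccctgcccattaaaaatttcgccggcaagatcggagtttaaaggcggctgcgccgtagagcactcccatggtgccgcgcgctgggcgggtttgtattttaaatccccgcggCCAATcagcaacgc
Cks2: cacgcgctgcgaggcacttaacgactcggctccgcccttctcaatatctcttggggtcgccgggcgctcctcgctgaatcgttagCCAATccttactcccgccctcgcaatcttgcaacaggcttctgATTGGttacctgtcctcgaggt
Nuf2: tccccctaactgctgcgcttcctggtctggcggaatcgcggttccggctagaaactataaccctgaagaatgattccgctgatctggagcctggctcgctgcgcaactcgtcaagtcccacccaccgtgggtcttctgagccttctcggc
The stretches lie at chr10:69352913-69353062, chr11:99024190-99024339, chr7:135716380-135716529, chr4:118437344-118437493 and chr1:169531465-169531614 on the minus strand, and at chr19:37376232-37376381, chr7:122159285-122159434 and chr13:51645082-51645231 on the plus strand. The RefSeq start lies 26 bases inside the gene as the GENCODE annotation draws it for Cdk1 and 9 bases for Cdc20, and at or before the annotated gene start for the other 6. Cdk1 held 2 TTTGAA and 2 CCAAT matches in these 150 bases, Mki67 held 2 and 1, and Top2a held 1 and 4. Cks2 held 2 CCAAT matches and no TTTGAA, Plk1 held 1 CCAAT match with its TTTGAA after the start, and Nuf2 held neither.

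Over the full windows, TTTGAA was present in 34 of 45 (75.6%), against 17.9% of all 32851 promoter windows of the same length. CCAAT was present in 77.8% against 37.4%, and both were present in 66.7% against 6.95%. TTTGAA was present in 46.2% of 52 windows of other kinetochore and spindle genes and in 13.3% of 45 windows of S phase and replication genes. Of the 45 TTTGAA matches in the G2 and mitosis windows, 51.1% began between 50 bases before and 25 bases after the start. In all windows 20.5% of 6737 matches did so. The 45 windows cover 42 genes and all 32851 windows cover 27025, so windows of the same gene can overlap. Sites of Prc1, Bub3 and Ect2 were counted again in an overlapping window, so the matches are not all distinct sites. The variant TTCGAA was present in 8.89% of the windows against 1.56% of all. These are matches of letters and not measured binding. The 11 genes with no TTTGAA in their windows were Birc5, Bub1, Ccnb1, Cdc25b, Cenpe, Cks2, Mad2l1, Nuf2, Nusap1, Pttg1 and Tacc3.

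**Figure D1:**
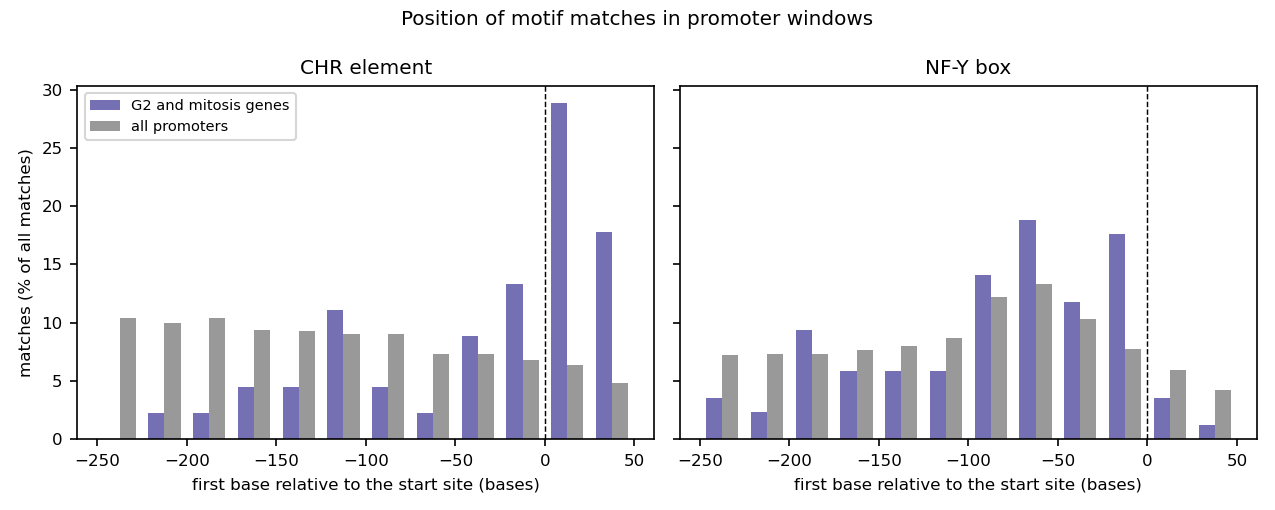
Position of TTTGAA (CHR element, left) and CCAAT (NF-Y box, right) in promoter windows, as the percent of all matches (y axis) by the first base of the match relative to the start site (x axis, bases), for the G2 and mitosis genes (purple) and all promoters (grey). The TTTGAA matches of the G2 and mitosis genes gather around the start, with 51.1% between 50 bases before and 25 bases after it, against 20.5% in all promoters.

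The level of the 50 genes differed most between libraries, and it went with the sequencing batch that the labels give. Batch 1 holds aged 1 and aged+Ri 1. Batch 2 holds young 2, aged 2, aged+Ri 2 and aged+Ri 3. Batch 3 holds young 3 and aged 3, and young 1 was sequenced in batches 1 and 3. The median level of the 50 genes, in CPM (read counts relative to library size, TMM-scaled), was 10.0 in aged 1 and 6.20 in aged+Ri 1. It was between 18.2 and 26.8 CPM in the 4 libraries of batch 2, 40.0 in young 3, 34.6 in aged 3 and 17.6 in young 1. The median over all genes tested lay between 9.81 and 12.5 CPM in the 9 libraries. Batch 1 holds no young library and batch 3 no aged+Ri library, and batch 2 alone holds all 3 groups, so batch and group are partly confounded. Within-batch values and a fit with the batch as a covariate are given beside the comparisons.

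Both batch 1 libraries lay below both batch 3 libraries for 34 of the 50 genes (68.0%), and 18.8% of all genes tested did so. The opposite order held for Pttg1 alone (2.00%), against 15.1% of all genes. A complete order, with batch 1 below all 4 libraries of batch 2 and those below batch 3, held for 12 of the 50 genes (24.0%) and for 0.502% of all genes. These 12 were Ccna2, Ccnb1, Cdca3, Cdca8, Cdk1, Cenpf, Ckap2, Dlgap5, Kif11, Top2a, Tpx2 and Ube2c. They include cyclin A2, cyclin B1 and CDK1 itself, a pair of chromosomal passenger and kinetochore genes, the spindle motor gene Kif11, and spindle assembly factors. Within the aged group, aged 1 was lowest for 41 of the 50 genes (82.0%, against 36.6% of all genes). Within aged+Ri, replicate 1 was lowest for 40 (80.0% against 38.2%). Young 3 was the highest young library for 32 genes (64.0% against 38.7%), and aged 3 the highest aged library for 33 (66.0% against 33.4%).

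**Figure D2:**
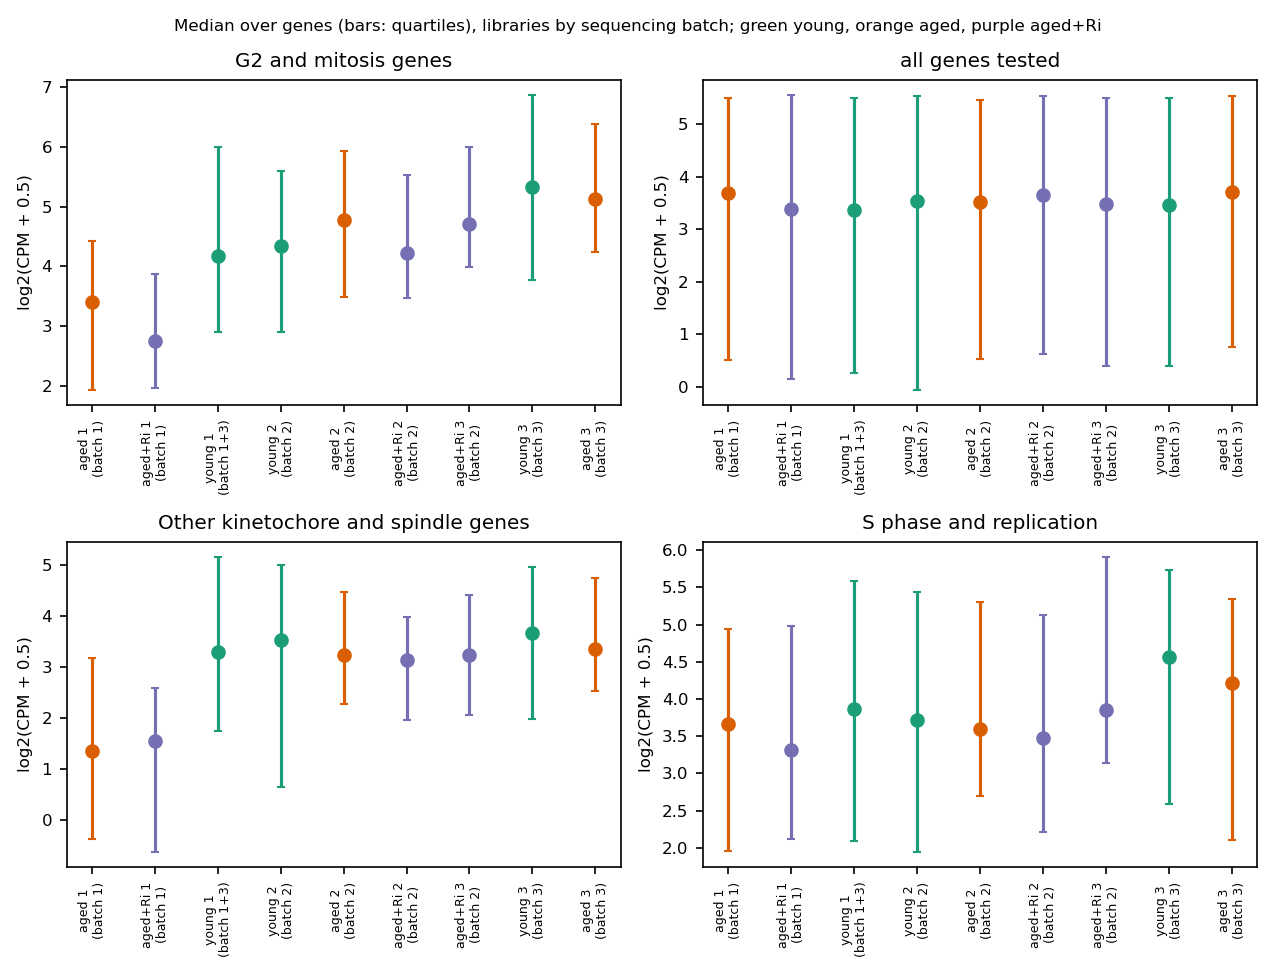
Median level over genes per library (y axis, log2 of CPM plus 0.5; bars, lower to upper quartile), with libraries ordered by sequencing batch (x axis) and coloured by group, for 4 gene sets. The median of the G2 and mitosis genes is lowest in the batch 1 libraries (10.0 and 6.20 CPM) and highest in young 3 and aged 3 (40.0 and 34.6 CPM), while that of all genes tested stays between 9.81 and 12.5 CPM.

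A separate list of 51 other kinetochore and spindle genes showed the same order of batches 1 and 3 for 32 genes (62.7%), with aged 1 lowest of its group for 40 and aged+Ri 1 lowest of its group for 40. Among 48 S phase and replication genes the order held for 17 (35.4%), and the complete order of the 3 batches held for 0. Of the low libraries, aged 1 had the highest total of all, 72503142 counts, and aged+Ri 1 had 37712059. Cdc25c and Ckap2 had 0 counts in aged 1, where 3 counts, the limit that a count of 0 allows, correspond to 0.0414 CPM. Kif4 and Kif2c had 3 counts and Dlgap5 had 2 in aged+Ri 1.

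**Figure D3:**
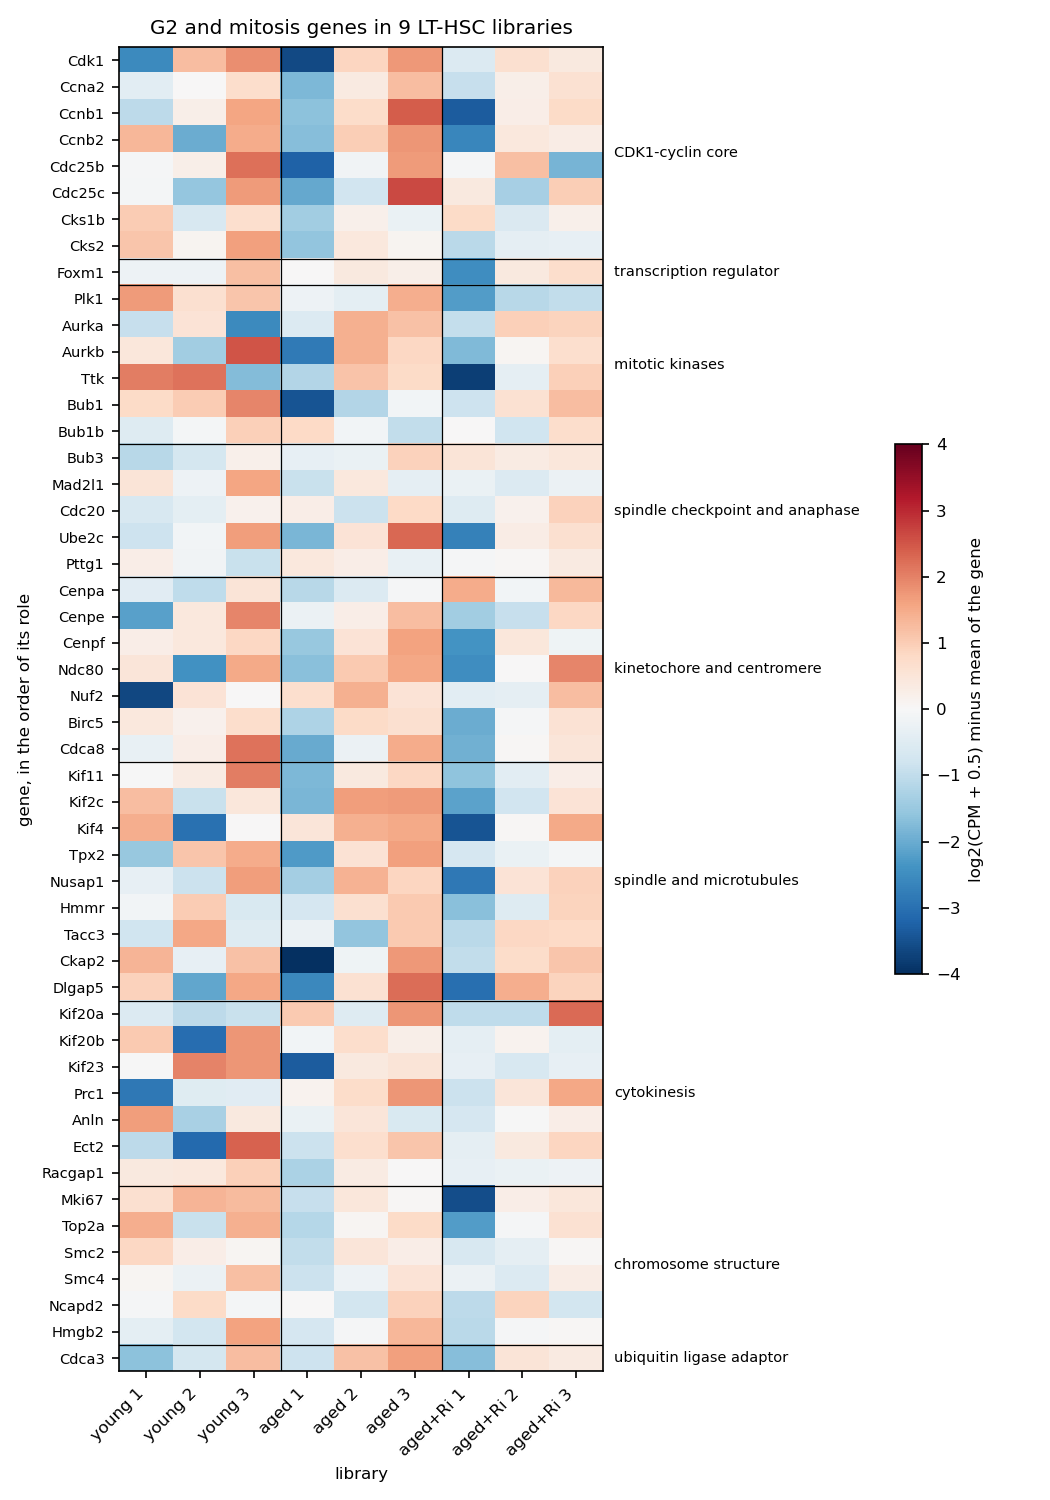
Level of each of the 50 genes (rows, grouped by role) in the 9 libraries (columns), as log2 of CPM plus 0.5 minus the gene's mean over libraries (blue lower, red higher). The columns of aged 1 and aged+Ri 1 are mostly blue, and they were the lowest of 9 libraries for 18 and 19 genes, while young 3 and aged 3 were the highest for 17 and 16.

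Markers of other cells also varied between the libraries. The summed level of 18 myeloid markers was 1175, 1568 and 4020.1 CPM in young 1, 2 and 3, and 691.0, 497 and 10783 CPM in aged 1, 2 and 3. In aged+Ri it was between 89.1 and 142 CPM, where Mpo was at 0 in replicates 2 and 3 and Cebpe in all 3 libraries. Young 3 and aged 3, the libraries with the highest G2 and mitosis levels, had the highest myeloid sums of their groups. Other libraries departed from this. In aged+Ri, replicate 3 had the highest median of the 50 genes (25.5 CPM) and the lowest myeloid sum (89.1 CPM). Aged 2 had a higher median than aged 1 (26.8 against 10.0 CPM) and a lower myeloid sum. Young 3 also had the highest lymphoid progenitor sum, 3394 CPM, against 10.1 to 834 CPM in the other 8 libraries. The sum of mature T, NK and B cell markers was 16228 CPM in young 1 against 311 to 2316 in the others, but the immunoglobulin genes Iglc2 and Jchain made up 13368 and 2567 CPM of it. Without immunoglobulin genes, a sum chosen after seeing the data, young 1 was at 293 CPM and the highest libraries were aged+Ri 1 at 1471 and aged 3 at 1271. All 16 HSC identity and quiescence markers had counts in every library, with sums between 1533 and 3789 CPM. The summed mitochondrially encoded RNAs were 37960 to 50819 CPM in young, 23294 to 36668 in aged and 16638 to 24653 in aged+Ri. The part of these differences in the levels of the 50 genes was not tested.

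In the 3 comparisons that the design implies, none of the 50 genes passed an adjusted p of 0.05 (edgeR quasi-likelihood test, Benjamini-Hochberg adjustment over 15127 genes). Of all genes tested, 0.0331% passed in aged against young, 0% in aged+Ri against aged and 1.45% in aged+Ri against young. DESeq2 called 0, 0 and 2 of the 50 in the same order, where it called 744, 318 and 1862 of all 15127 genes tested. With limma-voom 0 of the 50 were called in each, against 18, 55 and 644 of all genes. The 2 that DESeq2 called in aged+Ri against young were Plk1 (adjusted p = 0.00161) and Cks2 (adjusted p = 0.0355), both lower. The standard error of a log2 fold change in aged against young had a median of 0.88 for these genes, against 0.90 for all genes tested. In the young group the median coefficient of variation of the 50 genes was 71.7%, against 57.4% for all genes tested, and in aged and aged+Ri it was 63.1% and 63.2% against 46.4% and 43.6%. The comparisons aged against young and aged+Ri against aged share the aged libraries, and the other pairs share the young or the aged+Ri libraries.

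Aged cells had no shared direction in these genes. Prc1 was the gene higher at an unadjusted p under 0.05, and Cks2 and Bub1 were lower, which is 1 and 2 of the 50 genes against 6.09% and 10.1% of all genes. The aged and young libraries did not overlap for 3 higher genes (Prc1, Nuf2 and Kif20a) and 3 lower genes (Bub1, Mki67 and Racgap1), against 8.58% and 16.1% of all genes. The log2 fold change was positive for 20 of the 50, with a median of -0.20 against -0.13 over all genes. Without young 3 the median was 0.39 and 34 were positive, without aged 1 it was 0.16 with 29 positive, and without aged 3 it was -0.63 with 12 positive. Between aged 2 and young 2, in batch 2, the median log2 difference was 0.44, and between aged 3 and young 3, in batch 3, it was 0.08. With the batch as a covariate it was 0.02 with 25 positive.

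Aged cells given Rhosin had lower values than aged cells for most of the 50 genes, with 0 past the adjusted threshold. The log2 fold change was negative for 42 of the 50, with a median of -0.38 against -0.06 over all genes. Cenpa was higher and Plk1 lower at an unadjusted p under 0.05, 1 gene in each direction against 4.24% and 4.89% of all genes. The libraries did not overlap for Plk1, which was lower, and for 0 higher genes, against 8.66% and 7.87% of all genes. Without aged+Ri 1 the median was -0.09 and 22 genes were positive, without aged 3 it was -0.12 with 21 positive, and without aged 1 it was -0.83. With the sequencing batch as a covariate it was -0.04 with 24 positive, and within batches it was -0.43 in batch 1 and -0.26 in batch 2.

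Against young cells, aged cells with Rhosin had negative log2 fold changes for 40 of the 50 genes, with a median of -0.63 against -0.24 over all genes. Cenpa was higher and Cks2, Plk1 and Mad2l1 were lower at an unadjusted p under 0.05, 1 and 3 genes against 9.06% and 14.4% of all genes. Libraries did not overlap for 1 higher gene, Bub3 (12.4% of all genes), and for 7 lower genes, Cks2, Plk1, Mad2l1, Kif23, Racgap1, Mki67 and Smc2 (19.9% of all genes). The median was -0.09 without young 3 and 0.03 with the batch as a covariate, with 23 and 27 positive. Within batch 2, where both groups have libraries, it was 0.36, with 31 of the 50 genes higher in aged+Ri.

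**Figure D4:**
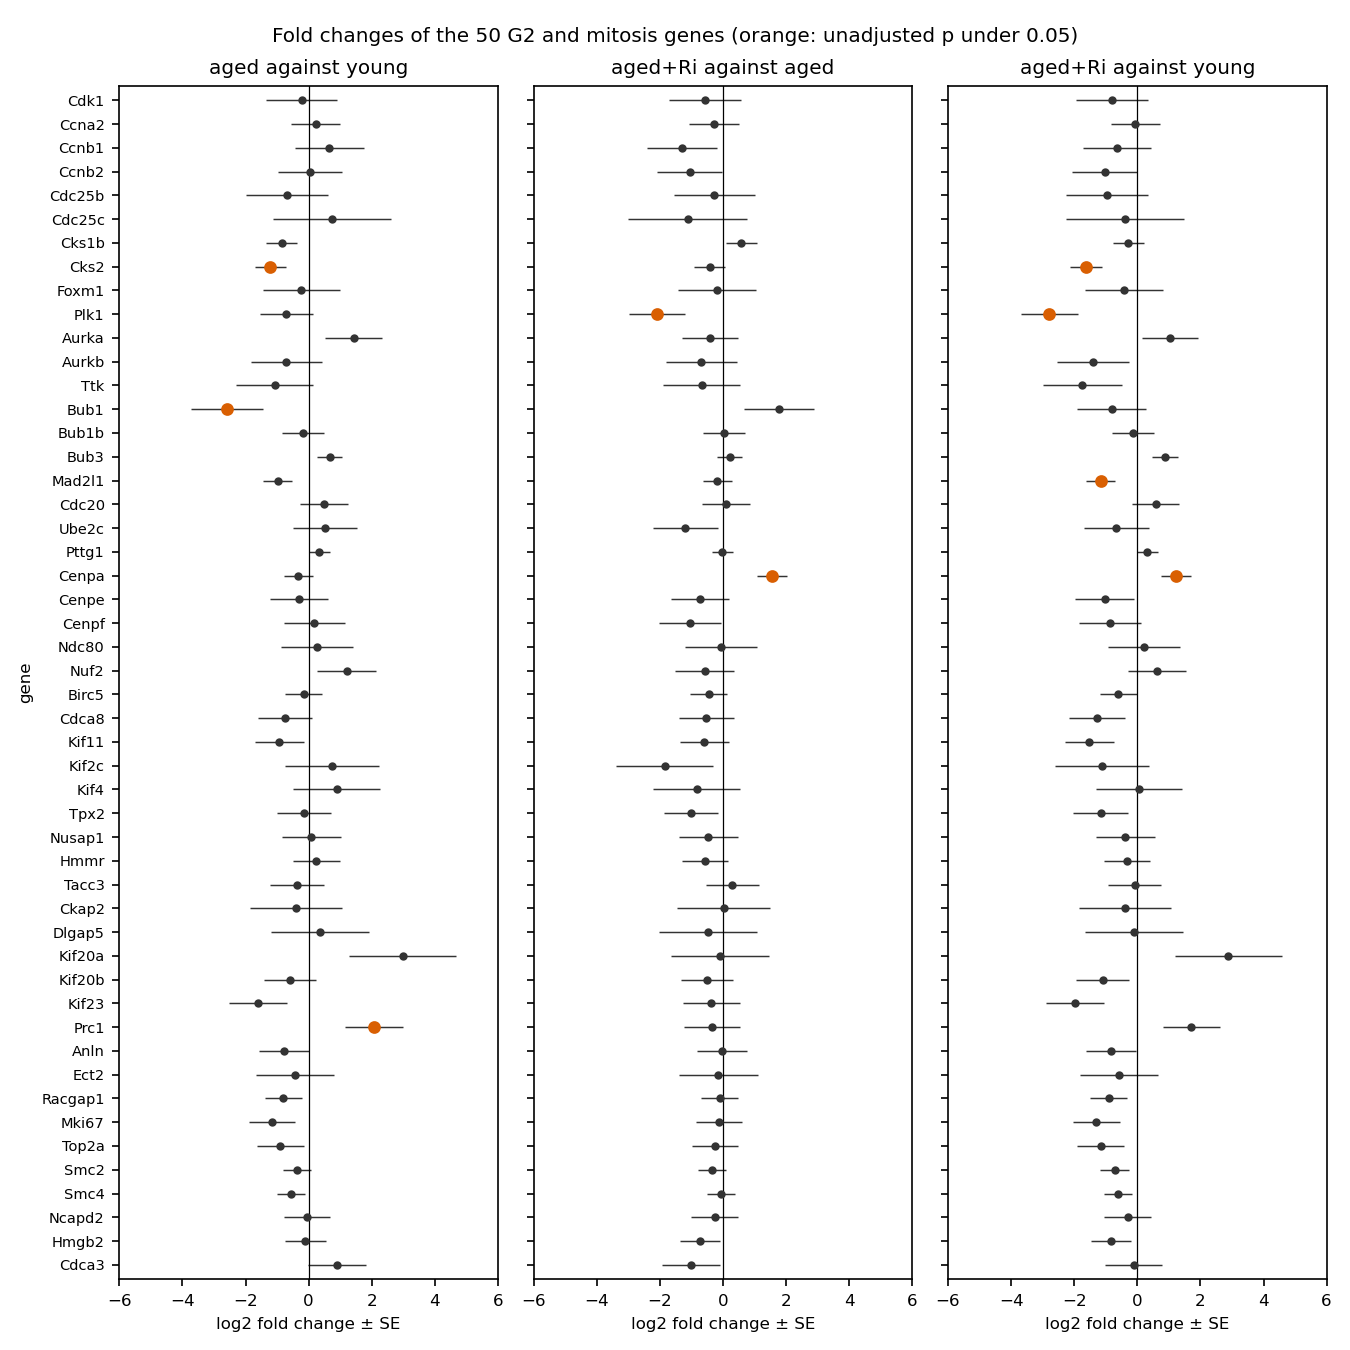
Log2 fold change ± SE (x axis) of each of the 50 genes (y axis, grouped by role) in the 3 comparisons, with unadjusted p under 0.05 in orange. Most bars cross 0, the medians are -0.20, -0.38 and -0.63 from left to right, and Cks2, Plk1, Bub1, Mad2l1, Cenpa and Prc1 are the genes in orange.

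The CDK1-cyclin core comprised 8 genes: the kinase gene Cdk1, the cyclins Ccna2, Ccnb1 and Ccnb2, the activating phosphatases Cdc25b and Cdc25c, and Cks1b and Cks2, small proteins that bind the kinase. The 8 genes split 4 and 4 by direction in aged against young. In aged+Ri against young all 8 log2 fold changes were negative, from -1.63 to -0.06, but within batch 2 the direction turned for 5 of the 8 genes, which were higher in aged+Ri. Cks2 was highest of the 50 per kilobase of exon, at 227 CPM per kb, followed by Pttg1 at 184 and Cks1b at 168, and Kif20a was lowest at 0.379. Cks2 was at 274, 136 and 395 CPM in young 1, 2 and 3, at 42.0, 169 and 136 in aged, and at 59.6, 98.9 and 101 in aged+Ri. All 3 aged+Ri libraries lay below every young library. Aged 2 lay within the young range, aged 1 below it, and aged 3 just below it at 135.5 CPM against 135.7 in young 2. Its log2 fold change was -1.22 ± 0.50 (SE, adjusted p = 0.265) in aged against young, -0.42 ± 0.49 in aged+Ri against aged and -1.63 ± 0.51 (adjusted p = 0.0987) in aged+Ri against young. With both batch 1 libraries left out, an alternative chosen after seeing the data, the aged against young value was -0.72. The log2 difference of aged to young for Cks2 was 0.32 in batch 2 and -1.54 in batch 3. That of aged+Ri to young was -0.44 in batch 2.

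Cdk1 was at 2.97, 47.6 and 72.9 CPM in young 1, 2 and 3, at 1.16, 36.4 and 67.9 in aged, and at 13.6, 31.0 and 26.1 in aged+Ri. Its young range spanned nearly all other libraries, and only aged 1 lay below young 1. Ccnb1 was at 16.6, 40.5 and 105 CPM in young, 10.7, 57.7 and 188 in aged, and 2.98, 41.6 and 59.7 in aged+Ri. In each group replicate 1 was lowest and replicate 3 highest, and the log2 fold change in aged+Ri against aged was -1.30 ± 1.10 (adjusted p = 0.815). Cks1b departed from that order, with 341, 108 and 268 CPM in young, 64.2, 192 and 140.3 in aged, and 287, 111 and 193 in aged+Ri. Its aged+Ri 1 level was the highest of its group, and the 3 groups overlapped.

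Foxm1 encodes the transcription factor that, with MYBL2 and MuvB, drives this program. It was low, at 2.73, 2.70 and 8.04 CPM in young, 3.22, 4.37 and 3.88 in aged, and 0.168, 4.35 and 5.53 in aged+Ri. The groups overlapped, with aged+Ri 1 below every other library, and no log2 fold change exceeded its SE.

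Of the 6 mitotic kinase genes, Plk1 had the lowest mean with Rhosin, at 2.37 ± 1.16 CPM (SD, n = 3). Plk1, which encodes Polo-like kinase, needed for centrosome maturation and mitotic entry, lies on chromosome 7 from 122159439 to 122169873 in GRCm38. It was at 23.1, 10.9 and 15.3 CPM in young, 5.89, 5.10 and 19.2 in aged, and 1.04, 2.90 and 3.16 in aged+Ri. All 3 aged+Ri libraries lay below all 6 others. The log2 fold change was -2.09 ± 0.88 in aged+Ri against aged (adjusted p = 0.494) and -2.79 ± 0.90 in aged+Ri against young (adjusted p = 0.105). Over the alternatives it lay between -2.41 and -1.24 in the first and between -3.08 and -2.26 in the second. Within batch 2, the log2 difference of aged+Ri to aged was -0.66 and to young -1.69.

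Bub1, a checkpoint kinase at kinetochores, was at 11.1, 13.3 and 26.1 CPM in young, 0.123, 2.51 and 5.83 in aged, and 3.31, 10.0 and 15.4 in aged+Ri. All aged libraries lay below all young ones, and the aged+Ri libraries overlapped both groups. Its log2 fold change was -2.57 ± 1.14 in aged against young (adjusted p = 0.288), and 1.76 ± 1.11 in aged+Ri against aged (adjusted p = 0.686). Aurkb, the kinase of the chromosomal passenger complex, was at 14.0, 3.47 and 59.5 CPM in young, 0.984, 27.8 and 18.2 in aged, and 2.58, 10.6 and 16.0 in aged+Ri. The young libraries of Aurkb alone spanned the range of all others except aged 1 and aged+Ri 1. The other kinase genes, Aurka, Ttk and Bub1b, overlapped between groups in every comparison.

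The 5 spindle checkpoint and anaphase genes had log2 fold changes in both directions, 4 of 5 positive in aged against young and 3 of 5 in aged+Ri against young. Mad2l1, which encodes MAD2, an inhibitor of the anaphase-promoting complex, was at 161, 97.8 and 337 CPM in young, 60.8, 153 and 88.3 in aged, and 94.0, 77.2 and 95.7 in aged+Ri. Every aged+Ri library lay below every young library, by a narrow margin to young 2. The log2 fold change was -0.98 ± 0.46 in aged against young (adjusted p = 0.310), and -1.16 ± 0.46 in aged+Ri against young (adjusted p = 0.158). Without young 3 the latter was -0.53, and within batch 2 the log2 difference of aged+Ri to young was -0.19. The log2 difference of aged to young was 0.64 in batch 2 and -1.92 in batch 3. Bub3, a checkpoint adaptor, had a higher mean in aged and in aged+Ri than in young. It was at 104, 136 and 254 CPM in young, 177, 183 and 421 in aged, and 317, 279.9 and 308 in aged+Ri. Aged 1 and aged 2 lay within the young range, and the log2 fold change in aged against young was 0.66 ± 0.40 (edgeR adjusted p = 0.427). The 3 aged+Ri libraries lay above the young ones, with a log2 fold change of 0.87 ± 0.41 (edgeR adjusted p = 0.214).

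Ube2c, the ubiquitin-conjugating enzyme of the anaphase-promoting complex, was at 21.2, 35.5 and 122 CPM in young, 10.2, 55.5 and 190.3 in aged, and 5.42, 47.1 and 59.8 in aged+Ri. As for Ccnb1, replicate 1 was the lowest library of each group, and aged 3 and young 3 were the highest of all 9. Pttg1, which encodes securin, the inhibitor of the cohesin-cutting protease, was abundant, at 431, 322 and 189.6 CPM in young, 472, 431 and 289 in aged, and 344, 371 and 455 in aged+Ri. Replicate 1 was its highest library in young and in aged and its lowest in aged+Ri, and its groups overlapped. Cdc20, the activator of the complex, was at 9.20 ± 2.92 CPM in young, 12.9 ± 6.85 in aged and 13.7 ± 7.02 in aged+Ri (SD, n = 3).

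Among the 7 kinetochore and centromere genes, Cenpa had the lowest unadjusted p of all 50 in aged+Ri against aged. Cenpa encodes the histone H3 variant that marks centromeres and lies on chromosome 5 from 30666777 to 30674830 in GRCm38. It was at 206, 138 and 397 CPM in young, 128, 189.8 and 271 in aged, and 783, 262 and 695 in aged+Ri. Replicates 1 and 3 of aged+Ri lay above all other libraries, and replicate 2 lay between aged 2 and aged 3. The log2 fold change was 1.56 ± 0.47 in aged+Ri against aged (edgeR adjusted p = 0.388) and 1.23 ± 0.47 in aged+Ri against young (adjusted p = 0.146). It lay between 1.05 and 1.95 over the alternatives in the first comparison, and within batches it was 2.60 in batch 1 and 1.17 in batch 2. The other 6 genes had negative log2 fold changes in aged+Ri against aged. They include Birc5 (survivin) at -0.46 ± 0.58 and Cdca8 (borealin) at -0.53 ± 0.86. A pair of outer kinetochore genes, Ndc80 and Nuf2, were at -0.06 ± 1.14 and -0.58 ± 0.93. Within batches Cdca8 took the other direction, with log2 differences of 0.11 in batch 1 and 0.52 in batch 2. Of the 7 genes, 2 were higher in aged+Ri than in aged in each of these batches, Cenpa and Cdca8.

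Of the 9 spindle and microtubule genes, 5 had positive log2 fold changes in aged against young. In aged+Ri against aged 2 were positive, and in aged+Ri against young 1. Within batch 2, however, 5 of the 9 were higher in aged+Ri than in young, with a median log2 difference of 0.80. Against aged, 3 of the 9 were higher in aged+Ri in batch 1 and 3 in batch 2. Kif11, the motor that separates the spindle poles, was at 18.9, 24.6 and 80.8 CPM in young, 5.26, 25.4 and 34.6 in aged, and 5.95, 14.3 and 23.1 in aged+Ri. Tpx2, an activator of Aurora A, was at 7.26, 47.7 and 62.3 CPM in young, 4.15, 33.2 and 68.7 in aged, and 13.6, 18.1 and 20.6 in aged+Ri. Kif2c, a microtubule-depolymerising motor, was at 5.62, 0.893 and 3.08 CPM in young, 0.232, 7.81 and 8.06 in aged, and 0.0842, 1.04 and 3.33 in aged+Ri. The groups of these 3 genes overlapped in every comparison. The lowest value of each was in aged 1 or aged+Ri 1. The lowest log2 fold change of the 9 was -1.85 ± 1.52, for Kif2c in aged+Ri against aged, where aged+Ri 1 had 3 counts.

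Among the 7 cytokinesis genes, Prc1 and Kif20a had positive log2 fold changes in aged against young and the other 5, Kif23, Racgap1, Kif20b, Anln and Ect2, negative. In batch 2 alone 5 of the 7 were higher in aged, and in batch 3 alone 2 of the 7. Prc1, a bundler of midzone microtubules, was at 0.930, 6.86 and 7.10 CPM in young, 11.0, 16.7 and 34.8 in aged, and 5.28, 14.0 and 29.7 in aged+Ri. All aged libraries lay above all young ones, with a log2 fold change of 2.07 ± 0.92 (adjusted p = 0.288). Exons of Prc1 and Rccd1 overlap on opposite strands, and whether reads were counted by strand is not given in the sources used here, which leaves the counts of Prc1 uncertain. Kif20a, a kinesin of late mitosis, was at 0.465, 0.179 and 0.257 CPM in young, 2.42, 0.488 and 4.28 in aged, and 0.197, 0.207 and 6.33 in aged+Ri. Each of its values was low, and it overlaps Cdc23. Kif23, a subunit of the centralspindlin complex that recruits the RhoA activator encoded by Ect2, was at 11.9, 49.9 and 42.9 CPM in young, 0.751, 16.1 and 17.7 in aged, and 9.55, 7.70 and 9.57 in aged+Ri. Every aged+Ri library lay below every young library for Kif23 (log2 fold change -1.96 ± 0.92, adjusted p = 0.218). Racgap1, the other centralspindlin subunit, was at 27.9 ± 6.79 CPM in young, 16.0 ± 7.93 in aged and 14.8 ± 0.607 in aged+Ri, and Ect2 was at 12.1 ± 18.4, 8.92 ± 5.33 and 8.08 ± 3.46 (SD, n = 3).

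The 6 chromosome structure genes had lower means in aged and in aged+Ri than in young cells over all libraries. Within batches this did not hold throughout: 4 of the 6 were higher in aged than in young in batch 2 and 2 of the 6 in batch 3, and 3 of the 6 were higher in aged+Ri than in young in batch 2. Mki67, which coats mitotic chromosomes and is a common label of cycling cells, was at 70.9, 116 and 109 CPM in young, 23.3, 61.5 and 46.7 in aged, and 3.37, 54.3 and 62.4 in aged+Ri. All young libraries lay above all others. The log2 fold change was -1.17 ± 0.74 in aged against young (adjusted p = 0.440), -0.13 ± 0.73 in aged+Ri against aged and -1.30 ± 0.74 in aged+Ri against young (adjusted p = 0.303). Top2a, the topoisomerase that untangles sister DNA, was at 115, 22.5 and 114 CPM in young, 18.7, 44.3 and 72.1 in aged, and 8.42, 40.5 and 63.7 in aged+Ri. Young 2 lay at the low end for Top2a, so the groups overlapped. Hmgb2, a chromatin protein and the gene with the highest mean, was at 255, 197 and 1008 CPM in young, 206, 321 and 833 in aged, and 157, 319.7 and 342 in aged+Ri. After young 3 and aged 3, the next highest library was aged+Ri 3 at 342 CPM. Smc4 of the condensin complex was at 194, 156 and 419 CPM in young, 100.2, 158 and 265 in aged, and 155, 125 and 223 in aged+Ri. Cdca3, an adaptor of the ubiquitin ligase that degrades the mitosis inhibitor WEE1, was at 13.6 ± 14.2 CPM in young, 25.3 ± 16.9 in aged and 12.6 ± 7.95 in aged+Ri (SD, n = 3).

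**Figure D5:**
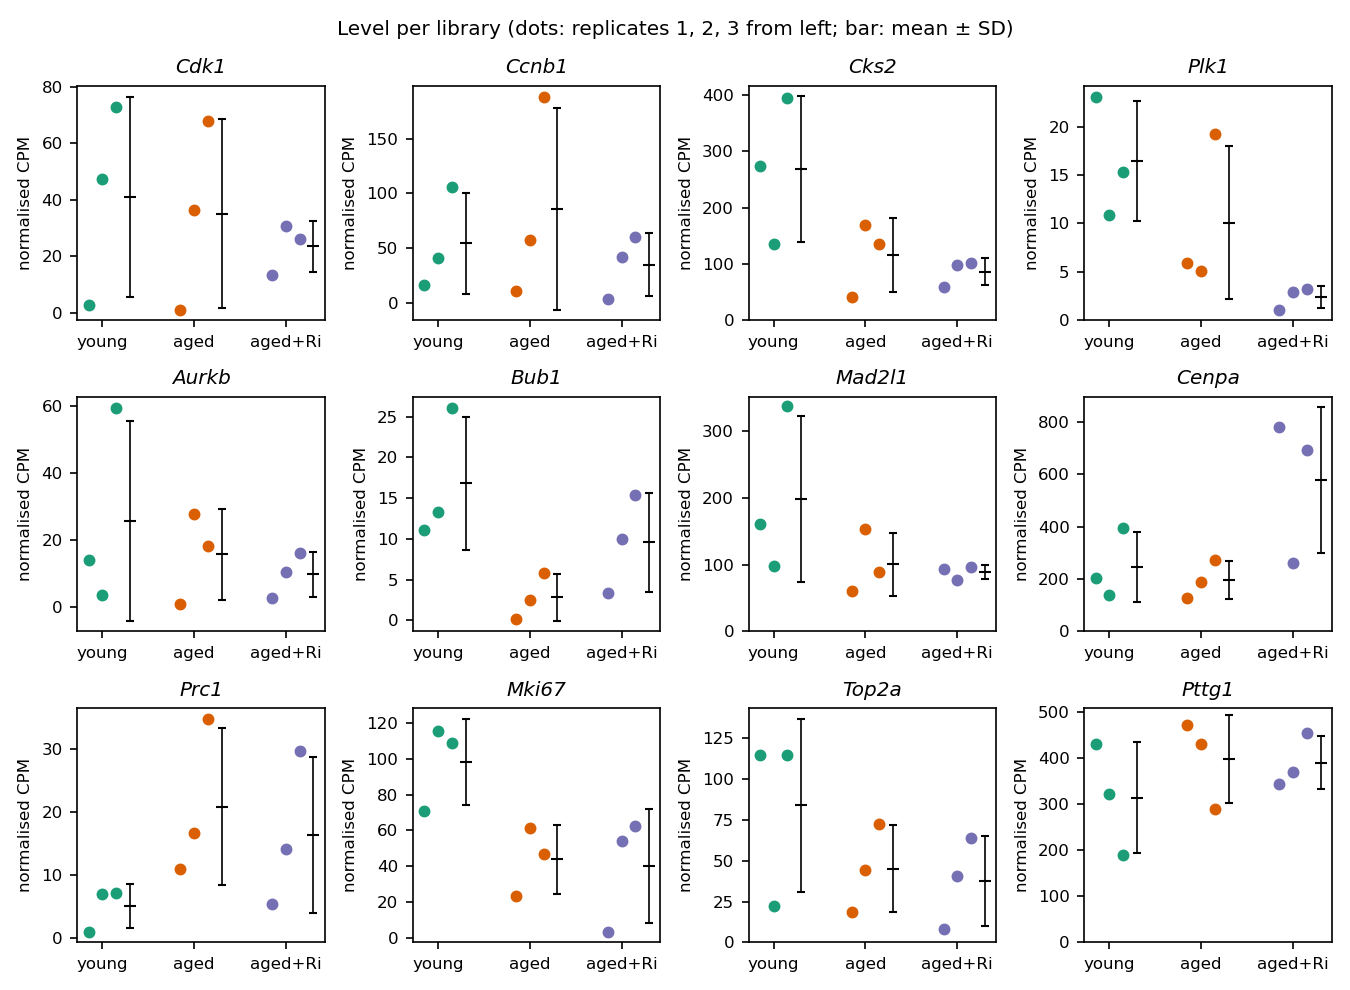
Level of 12 of the 50 genes in CPM (y axis) by library, with replicates 1, 2 and 3 from left to right in each group (x axis) and the group mean ± SD as a bar. The 3 young libraries of Mki67 (70.9 to 116 CPM) lie above all others and the 3 aged+Ri libraries of Plk1 (1.04 to 3.16 CPM) below all others, whereas Cdk1 and Ccnb1 spread within every group.

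The summed level of the 50 genes was 3059, 2271 and 5274 CPM in young 1, 2 and 3, 1655, 3075 and 4380 in aged, and 2490, 2562 and 3673 in aged+Ri. The 5 genes with the highest means, Hmgb2, Pttg1, Cenpa, Bub3 and Smc4, carried much of it. Without them the sum was 1868, 1322 and 3006 CPM in young, 571, 1792 and 2299 in aged, and 733, 1205 and 1650 in aged+Ri. In aged+Ri 1 the drop was from 2490 to 733 CPM, with Cenpa alone at 783.

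Other genes of the cell cycle were read from lists. In the 3 comparisons, 0 of 48 S phase and replication genes, 0 of 13 DREAM and MuvB complex genes, 0 of 3 NF-Y subunits, 0 of 17 genes of the anaphase-promoting complex and 0 of 13 G2 checkpoint genes passed an adjusted p of 0.05 (edgeR quasi-likelihood test). The S phase genes had 0 higher and 5 lower at an unadjusted p under 0.05 in aged against young (6.09% and 10.1% of all genes), 0 and 0 in aged+Ri against aged (4.24% and 4.89%), and 1 and 5 in aged+Ri against young (9.06% and 14.4%). Among the 51 other kinetochore and spindle genes, 40 had negative log2 fold changes in aged+Ri against young. In that comparison 1 of the 51 passed, against 1.45% of all genes. This was Zwint, a kinetochore scaffold gene, which rose. It was at 122, 83.3 and 102 CPM in young, 167, 182 and 324 in aged, and 699, 422 and 594 in aged+Ri, with a log2 fold change of 2.48 ± 0.35 (edgeR adjusted p = 0.0116) that passed under all 18 alternatives. Like Cenpa, it was highest in aged+Ri 1.

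Of the 12 genes tested among G1 cyclins, kinases and inhibitors, 2 passed in aged+Ri against young, against 1.45% of all genes. Cdk6 fell and Cdk4 rose. Cdk6, a cyclin D-dependent kinase of G1, was at 154 ± 47.0 CPM in young, between 103 and 120 CPM in the aged libraries and at 28.5 ± 10.5 CPM in aged+Ri (SD, n = 3), with a log2 fold change of -2.44 ± 0.38 (edgeR adjusted p = 0.0160). It passed in 14 of 18 alternatives. The highest edgeR adjusted p was 0.107, with both batch 1 libraries left out. Without aged+Ri 1 it was 0.0623, and without aged+Ri 3 it was 0.0916. Cdk4 was at 97.0 ± 28.5 CPM in young and 258 ± 51.4 CPM in aged+Ri, with a log2 fold change of 1.41 ± 0.32 (edgeR adjusted p = 0.0461). That call held in 4 of 18 alternatives, and leaving out any library except young 2 ended it.

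Genes with and without the CHR letters had similar medians, with no test made. The median log2 fold change of the 31 genes with TTTGAA and the 11 genes without it was -0.23 and -0.30 in aged against young, -0.36 and -0.42 in aged+Ri against aged, and -0.72 and -0.64 in aged+Ri against young. In the annotation of GRCm38, exons of 15 of the 50 genes overlap exons of another gene, and for 12 of them that gene is in the table. These include Ccna2, Cdc25b, Cdc20, Ube2c, Kif4, Nusap1 and Tacc3, whose counts are uncertain for the same reason as those of Prc1. Foxm1 overlaps Gm44596 and Tex52 on its own strand, so its counts would be uncertain even if reads were counted by strand.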

How the data were processed

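RNA of 9 LT-HSC libraries in 3 groups was sequenced. The authors deposited a table of estimated counts per gene, of which 71.6% to 80.9% per library are whole within 0.005. Per the labels' protocols, libraries were made with SMART-Seq and Nextera XT kits. Per the submitters' processing notes, the tools were STAR 2.7.0, featureCounts, cutadapt 1.18, R 4.2.0 and SAMtools 1.14, and the build was GRCm38. The annotation and the strand setting are not given in the sources used here. Here the estimated counts were rounded, filtered by filterByExpr and scaled by TMM, and edgeR 4.0.16 (R 4.3.3) fitted all 9 libraries together by quasi-likelihood, with a mean per group and 6 residual degrees of freedom. SE is the log2 fold change divided by the root of F. Alternatives used DESeq2 1.42.0, limma 3.58.1 (voom with sample weights), other scaling and filters, 2 groups alone, the replicate number or the batch as a term, and each library left out. The 50 genes, roles and lists were chosen with earlier results of these data known. Values per library were given for the 8 genes with the smallest p in each comparison, the 5 with the highest mean CPM, and Cdk1, Ccnb1, Plk1, Aurkb, Foxm1, Mki67 and Top2a. Of other lists up to 4 genes with the smallest p could be named. Exon lengths and overlaps came from the GENCODE annotation of GRCm38, and promoter sequences from RefSeq, of which 33 of 45 windows matched a transcript after the start and 0 in reverse. The steps were tested on simulated data.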

Additional observations from a re-analysis of the deposited data

How the results depend on the processing

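None of the 50 genes passed in any comparison under 17 of the 18 alternatives, and DESeq2 called 2 in aged+Ri against young. The number of genes called in aged against young was 5, and it was 744 with DESeq2, 18 with limma-voom, 20 without a filter and 1 with only the 2 groups, and 2 to 80 with a library left out (omitting young 3 gave 80, aged 2 gave 20, young 1 gave 15, young 2 gave 13 and aged 3 gave 2). In aged+Ri against aged it was 0, and it was 318 with DESeq2, 55 with limma-voom, 11 without a filter, 2 with the 2 groups, 5 with the batch, 1 with both batch 1 libraries left out and 0 to 6 with a library left out. In aged+Ri against young it was 219, and it was 1862 with DESeq2, 644 with limma-voom, 57 with the 2 groups, 33 with both batch 1 libraries left out and 18 to 532 with a library left out (omitting aged+Ri 3 gave 18, aged+Ri 1 gave 34, young 1 gave 109, aged 1 gave 113, aged 2 gave 121, aged 3 gave 132 and young 3 gave 532). The cause was not tested. The summed level without its 5 highest genes was 1554 CPM in aged and 1196 CPM in aged+Ri. A log2 fold change of the 50 genes took the other sign in 97, 99 and 85 gene-and-alternative pairs of the 3 comparisons in the order above, most often with the batch as a covariate (46 of 150).

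The replicate numbers were not taken to pair the libraries, though they go in part with the sequencing batch (aged 1 and aged+Ri 1 share batch 1, the replicates numbered 2 share batch 2, young 3 and aged 3 share batch 3, while young 1 and aged+Ri 3 depart from this). Deviations of same-numbered libraries correlated between -0.0722 and 0.122, and 5 of 9 libraries correlated best with their own number. With the replicate number as a block, 6, 2 and 226 genes were called, and 0 of the 50.

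The standard errors limit what 3 libraries a group can show. Their median in aged against young was 0.88 for these genes and 0.90 for all genes tested. Changes as large as -2.79 (Plk1) and 2.98 (Kif20a) did not pass. Both batch 1 libraries hold genes at 0 to 3 counts.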
